A study of Mus musculus with 12 samples.

Results

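The 10 genes described here encode ligands of the tumor necrosis factor (TNF) superfamily through which T cells signal to B cells and to lymph node stroma: *Cd40lg*, *Ltb*, *Lta*, *Tnf*, *Tnfsf8*, *Tnfsf11*, *Tnfsf14*, *Tnfsf10*, *Fasl* and *Tnfsf13b*. They were chosen by symbol from family membership, though with earlier results of these data known, and all 10 were among the 24561 genes of the count table. RNA was sequenced from CXCR5hiPD-1hi OT-II Tfh cells from lymph nodes of the C57BL/6 strain, that is, follicular helper T cells whose transgenic receptor recognizes ovalbumin, 3 days after immunization with NP-OVA. The cells labelled wild-type carried *Cd4-cre* alone, and those labelled BCL6-insufficient carried *Cd4-cre* and 1 floxed *Bcl6* allele (*Bcl6* fl/+). *Cd4-cre* acts in T cells generally, so that the floxed allele can be lost before the cells become Tfh cells. All recipients were *Sap*-/- mice, whose own T cells help B cells poorly, and all were given NP-OVA with LPS in alum after the transfer of OT-II cells. There were 3 recipient mice per label and each mouse gave 2 technical repeats of about 200 cells, which makes 12 libraries. The number of donor mice is not given in the sources used here, so genotype and donor cannot be told apart, and neither are the ages of the mice.

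TNF superfamily ligands are made as trimers, mostly at the cell surface, and engage trimeric receptors on the cell in contact. CD40L, encoded by *Cd40lg*, is the main contact-dependent help signal that activated CD4+ T cells deliver to B cells. Lymphotoxin beta, encoded by *Ltb*, holds lymphotoxin alpha (*Lta*) at the membrane as a heterotrimer that engages the lymphotoxin beta receptor and is known for its part in lymphoid tissue organization. The comparison asks how transcripts of these ligands differ between Tfh cells with the 2 *Bcl6* genotypes.

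Library totals lay between 3343375 and 8315722 counts, and the repeats of a mouse were summed to totals between 10098419 and 14002507. The defining transcripts of the sorted cells were present in both groups, with the 8 T cell genes examined summing to between 7303 and 10570 normalized CPM (counts scaled to a common library total) in a mouse and the 9 Tfh genes to between 2191 and 2362. Single Tfh genes differed between the labels nonetheless. *Bcl6*, the gene that the genotype targets, was higher in the mice labelled BCL6-insufficient, at 148.7 ± 2.177 CPM (SD, n = 3) against 62.44 ± 11.48 CPM (SD, n = 3), a log2 fold change of 1.25 with a standard error of 0.121 (adjusted p = 6.3e-07, edgeR). The transcript therefore went against the label, and counts per gene do not separate the floxed part from the rest. The groups are named by their labels, and every direction given rests on them. edgeR's quasi-likelihood test over the 12719 genes that passed its filter on low counts called 2288 of them, or 18.0%, at an adjusted p under 0.05. Of these, 1166 (9.17%) were higher and 1122 (8.82%) were lower with the BCL6-insufficient label, while log2(TPM + 1) values gave 390 higher and 915 lower. Of the 9 Tfh genes, 3 fell and 2 rose with the BCL6-insufficient label. *Cxcr5* and *Pdcd1*, which encode the markers used in the sort, fell 1.32-fold (adjusted p = 0.00476, edgeR) and 1.34-fold (adjusted p = 0.0042), and *Tox2* fell 1.75-fold (adjusted p = 8.01e-06). *Icos* rose 1.56-fold (adjusted p = 0.000147) beside *Bcl6*. Across the tested genes, the 3 mice of one label did not overlap the 3 of the other in 34.4%.

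The sequences before the start sites of 5 of the ligand genes are shown because these 5 comprise the 3 genes whose transcripts changed and *Tnf* and *Lta*, the family members that follow *Ltb* on chromosome 17. RefSeq promoters on GRCm38.p6 were matched by symbol for 9 of the 10 genes, *Cd40lg* being without an entry. The stretches are chr17:35194257-35194438 on the plus strand for *Ltb*, chr17:35205352-35205601 on the minus strand for *Lta*, chr17:35202008-35202257 on the minus strand for *Tnf*, chr4:63861348-63861534 on the minus strand for *Tnfsf8* and chr17:57194182-57194431 on the minus strand for *Tnfsf14*. Each is written 5′ to 3′ on the gene's strand and stops before the annotated start, and capitals mark motif matches on either strand.
Ltb: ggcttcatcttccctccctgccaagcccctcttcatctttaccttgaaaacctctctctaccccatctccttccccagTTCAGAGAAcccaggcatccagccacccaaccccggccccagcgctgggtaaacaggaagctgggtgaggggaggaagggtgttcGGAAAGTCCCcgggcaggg
Lta: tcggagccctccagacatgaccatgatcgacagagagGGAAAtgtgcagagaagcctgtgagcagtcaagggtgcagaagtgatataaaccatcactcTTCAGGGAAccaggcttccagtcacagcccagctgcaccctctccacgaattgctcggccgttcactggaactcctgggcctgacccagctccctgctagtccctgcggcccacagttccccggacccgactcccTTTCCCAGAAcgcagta
Tnf: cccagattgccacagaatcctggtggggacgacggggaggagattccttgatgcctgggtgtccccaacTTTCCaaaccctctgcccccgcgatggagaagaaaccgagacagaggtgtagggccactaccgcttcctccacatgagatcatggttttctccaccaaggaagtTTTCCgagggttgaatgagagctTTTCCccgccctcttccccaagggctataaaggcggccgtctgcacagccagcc
Tnfsf8: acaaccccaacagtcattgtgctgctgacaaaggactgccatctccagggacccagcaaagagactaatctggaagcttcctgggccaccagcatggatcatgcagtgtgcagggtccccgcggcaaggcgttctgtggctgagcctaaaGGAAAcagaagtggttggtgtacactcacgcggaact
Tnfsf14: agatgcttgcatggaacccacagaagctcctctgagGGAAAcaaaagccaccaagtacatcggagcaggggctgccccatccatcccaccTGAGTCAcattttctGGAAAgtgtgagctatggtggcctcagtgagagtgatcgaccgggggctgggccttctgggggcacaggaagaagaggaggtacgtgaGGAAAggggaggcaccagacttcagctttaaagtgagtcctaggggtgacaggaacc
Both strands were searched for 4 motifs in the 250 bases before each RefSeq start. TTCNNNGAA, a core that BCL6 and STAT proteins share, matched once before *Ltb* and 2 times before *Lta*, whereas it had no match before the other 7 genes with an entry. Of 32851 promoters of this length, 7.02% held this core. GGAAA, the core bound by NFAT proteins, matched in all 9 genes and in 55.6% of all promoters. The NF-kappaB consensus motif, held by 7.25% of all promoters, matched 1 time, before *Ltb*, where it overlaps the NFAT core. TGANTCA, the AP-1 motif, matched once before *Tnfsf14* and once before 1 of the 2 RefSeq starts of *Tnfsf13b*, and in 6.75% of all promoters. One of the *Lta* matches to the BCL6 and STAT core also overlaps an NFAT core. These letter matches are descriptions of the windows, and binding was not measured in these data.

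Of the 10 ligand genes, 9 passed the filter and 3 of them were called. *Ltb* and *Tnfsf14* fell with the BCL6-insufficient label and *Tnfsf8* rose. *Cd40lg*, *Lta*, *Tnf*, *Tnfsf11*, *Tnfsf10* and *Tnfsf13b* did not pass the test, and *Fasl* was too low to be tested. The 1 gene called higher and 2 called lower compare with the shares of 9.17% and 8.82% over all genes tested. The median log2 fold change was 0.05 over the 9 tested ligands and 0.01 over all genes tested. The same 3 genes were those whose mice did not overlap between the labels, which is 33.3% of the 9 and near the 34.4% found over all genes.

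**Figure D1:**
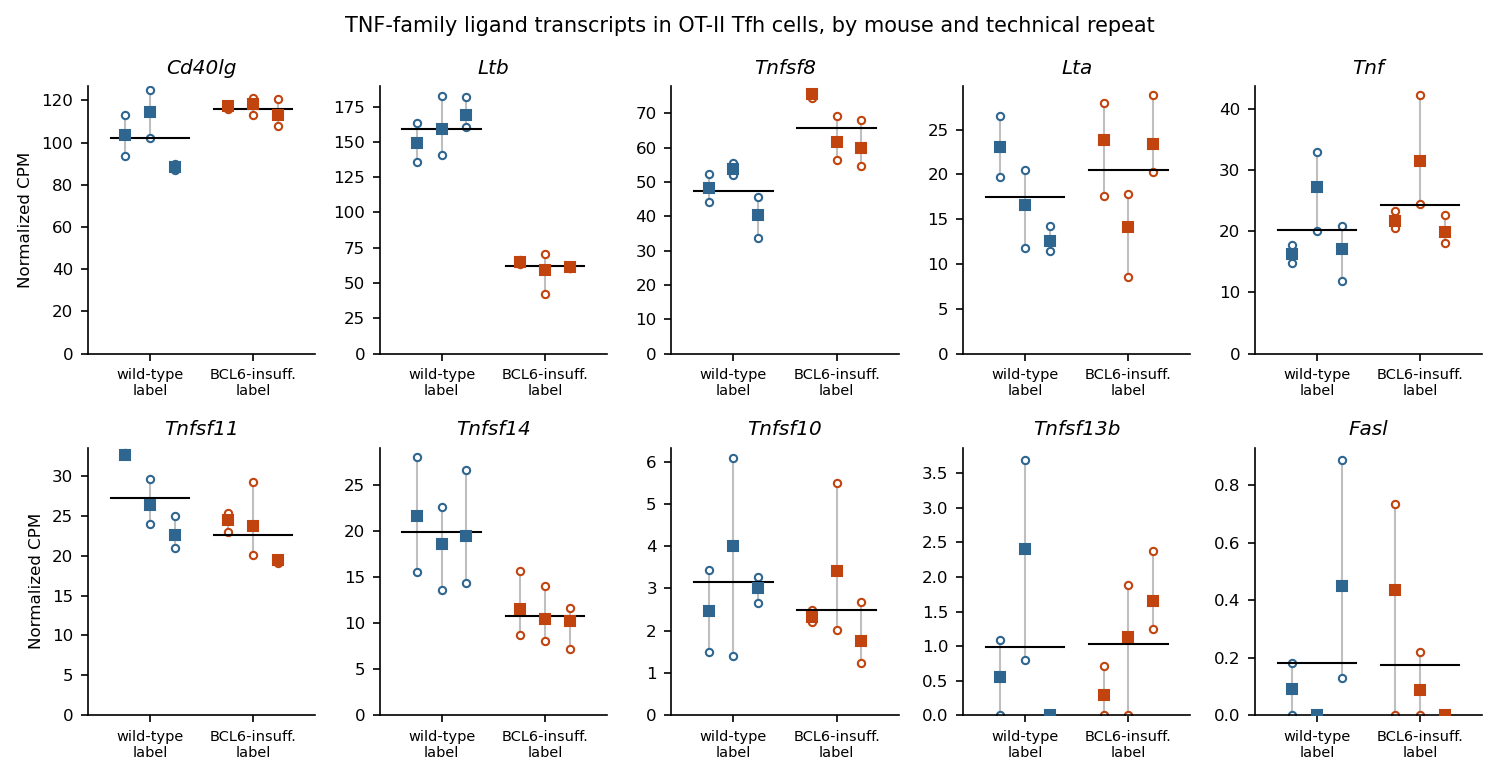
Normalized CPM (vertical axes, each starting at 0 and with its own range) of the 10 ligand transcripts in mice of the wild-type (blue) and BCL6-insufficient (red) labels. Filled squares are mice with the repeats summed, open circles are the 2 technical repeats of each mouse and black lines are means over 3 mice. For *Ltb*, all libraries with the BCL6-insufficient label, at most 70.55 CPM, lie below all those with the wild-type label, at least 136.0 CPM.

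**Figure D2:**
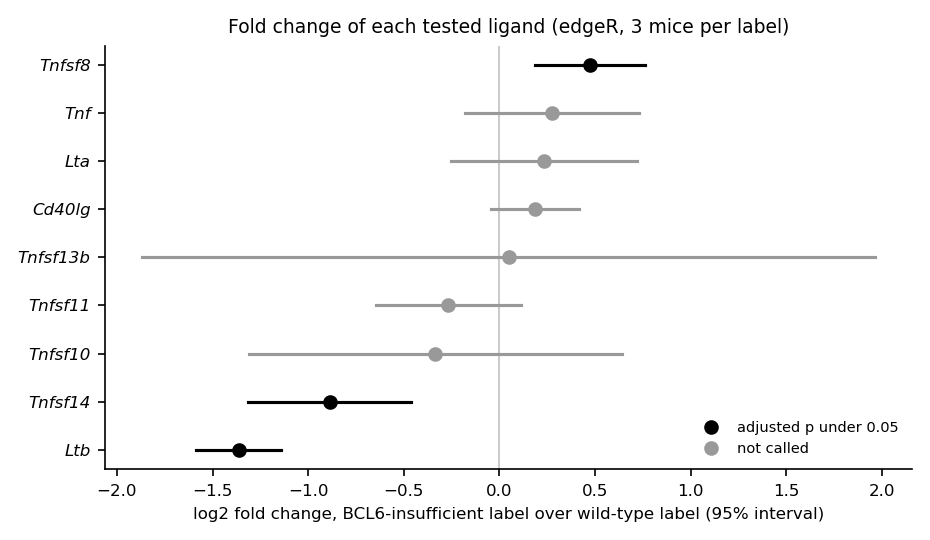
Log2 fold change of the 9 tested ligands, BCL6-insufficient over wild-type label (horizontal axis), with 95% intervals from the edgeR fit over 3 mice per label. Black marks ligands with an adjusted p under 0.05: *Ltb* at -1.36, *Tnfsf14* at -0.89 and *Tnfsf8* at 0.47. The intervals of the other 6, in gray, include 0.

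To set levels of different genes side by side, CPM was divided by each gene's exon length. Over the 6 mice, *Cd40lg* averaged 87.29 CPM per kb and *Ltb* 72.88, and the ranges of these genes overlapped only because both labels were pooled. In each mouse labelled wild-type *Ltb* was the higher of them per kb, and in each mouse labelled BCL6-insufficient *Cd40lg* was. *Tnfsf8* followed at 14.84, *Lta* at 13.7, *Tnf* at 13.59, *Tnfsf11* at 11.13 and *Tnfsf14* at 8.306 CPM per kb, each overlapping the next in its range over mice. *Tnfsf10*, *Tnfsf13b* and *Fasl* lay at 0.537, 0.146 and 0.0918 CPM per kb. The ranges over mice did not overlap between *Ltb* and *Tnfsf8* or between *Tnfsf14* and *Tnfsf10*, and the other neighbors in this order were not separated over the pooled mice.

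The makeup of this ligand message differed between the labels mainly in its *Ltb* part. Of the summed per-kb level of the 10 genes, *Ltb* took 42.5% ± 4.5 (SD, n = 3) in wild-type-labelled mice but 20.7% ± 0.681 (SD, n = 3) in BCL6-insufficient-labelled ones. The share of *Cd40lg* was 32.9% ± 2.35 (SD, n = 3) in the former and 47.1% ± 1.19 (SD, n = 3) in the latter. The sum itself was 247.8 ± 14.1 CPM per kb (SD, n = 3) and 197.2 ± 7.18 CPM per kb (SD, n = 3), so that a share can be larger without a higher level of its gene.

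**Figure D3:**
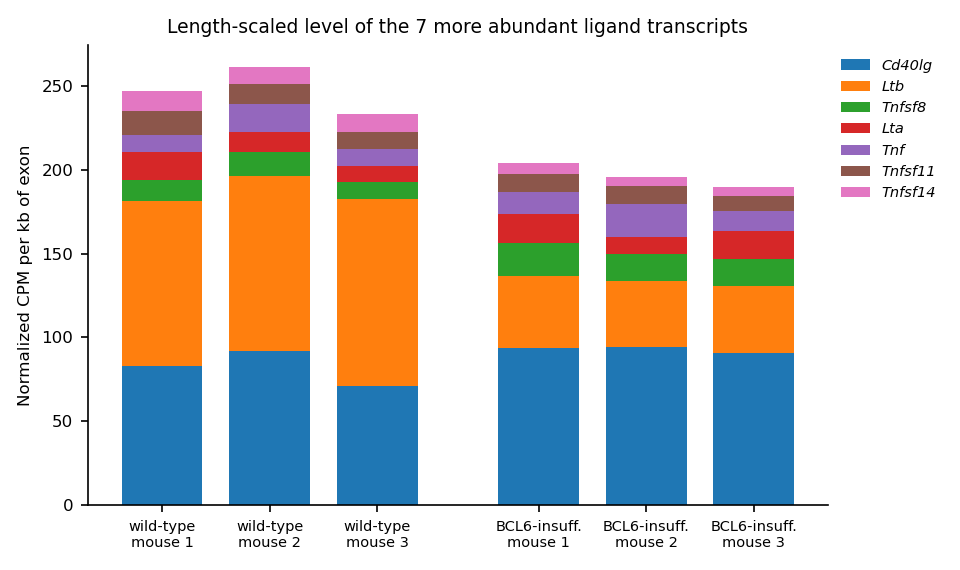
Normalized CPM per kb of exon (vertical axis, from 0) of the 7 more abundant ligand transcripts, stacked for each of the 6 mice. The *Ltb* segment (orange) is shorter in the 3 mice labelled BCL6-insufficient, with a mean of 40.79 CPM per kb, than in the 3 labelled wild-type, with a mean of 105.0, while *Cd40lg* (dark blue) averages 92.89 and 81.69.

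*Cd40lg*, which lies at chrX:57212143-57224042 (GRCm38, plus strand), had 117.1, 118.1 and 113.1 CPM in the 3 mice labelled BCL6-insufficient. In those labelled wild-type it had 103.4, 114.5 and 88.45 CPM. The means of 116.1 ± 2.673 (SD, n = 3) and 102.1 ± 13.06 (SD, n = 3) CPM differed by a log2 fold change of 0.19, with a 95% interval from -0.04 to 0.42 (adjusted p = 0.27, edgeR). The ranges of the mice overlapped, because the second wild-type-labelled mouse reached the level of the other group. In the main fit, a fall of the *Cd40lg* transcript by more than the lower bound of -0.04 lies outside the 95% interval. The log2 fold change was 0.10 with GC and length trends removed (adjusted p = 0.621, edgeR). It was 0.09 without the third mouse labelled wild-type (adjusted p = 0.72, edgeR), so the bound is that of the main fit only. CD40L protein, stored or at the surface, was not measured here.

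*Ltb* lies at chr17:35194439-35196320 (plus strand) and was the ligand with the largest difference. It had 64.86, 59.37 and 61.27 CPM in the mice labelled BCL6-insufficient and 149.4, 158.9 and 169.1 CPM in those labelled wild-type. These values came from 891, 679 and 596 counts and from 1631, 1788 and 2252 counts. All 3 mice of the first group lay below all 3 of the second, and so did all 6 libraries, at 42.06 to 70.55 CPM (median 62.19) against 136.0 to 182.6 CPM (median 161.8). The fall was 2.57-fold, a log2 fold change of -1.36 with a standard error of 0.107 and a 95% interval from -1.58 to -1.14 (adjusted p = 3.42e-08, edgeR). By its p it ranked 3 of the 12719 genes. In bulk RNA, fewer cells with the transcript and less transcript per cell cannot be told apart. The longest *Ltb* transcript has a GC content of 61.0%, the highest of the 10 genes. With trends in GC content and length removed, the *Ltb* log2 fold change was -1.19 (adjusted p = 8.57e-08, edgeR). In the annotation the microRNA gene *Mir6973a* overlaps *Ltb* on the same strand over 78 bases.

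*Lta*, whose product needs lymphotoxin beta to stay at the membrane, lies near *Ltb*, beyond *Tnf*, at chr17:35203165-35205351 (minus strand). It had 23.8, 14.17 and 23.44 CPM in the mice labelled BCL6-insufficient and 23.08, 16.62 and 12.61 CPM in those labelled wild-type. The ranges overlapped almost entirely. The log2 fold change was 0.23, with a 95% interval from -0.25 to 0.72 (adjusted p = 0.545, edgeR). The spread was wide for this gene, whose repeats in the second mouse labelled BCL6-insufficient had 17.78 and 8.588 CPM.

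Within a mouse, the ratio of *Ltb* to *Lta* counts does not depend on the scaling of the library. It was 2.72, 4.18 and 2.61 in the mice labelled BCL6-insufficient and 6.46, 9.54 and 13.4 in those labelled wild-type. The groups did not overlap, and the mean log2 ratio was 1.63 ± 0.376 (SD, n = 3) against 3.23 ± 0.525 (SD, n = 3), a difference of -1.60 (two-sided exact permutation p = 0.1, the smallest that 3 mice against 3 allow). The ratio of *Ltb* to *Cd40lg* counts was 0.554, 0.503 and 0.542 against 1.44, 1.39 and 1.91. *Cd40lg* counts thus exceeded *Ltb* counts in each mouse labelled BCL6-insufficient and were fewer in each mouse labelled wild-type. The difference of the mean log2 ratios, from -0.91 ± 0.0733 (SD, n = 3) against 0.65 ± 0.252 (SD, n = 3), was -1.55 (two-sided exact permutation p = 0.1, again the smallest possible). Both ratios were chosen with the *Ltb* result known, so their separation restates that result and is no further test of it.

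*Tnf*, encoding the cytokine that names the family, lies between *Ltb* and *Lta*, at chr17:35199381-35202007 (minus strand). It had 21.69, 31.57 and 19.84 CPM in the mice labelled BCL6-insufficient and 16.3, 27.2 and 17.04 CPM in those labelled wild-type. The groups overlapped, and the second mouse of each label was the highest of its group. The log2 fold change was 0.27, with a 95% interval from -0.18 to 0.73 (adjusted p = 0.431, edgeR).

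The genes around *Lta*, *Tnf* and *Ltb* were examined to see whether the lower *Ltb* value was shared along the chromosome. Of 10 neighboring genes, 7 were tested, of which 3 fell and 1 rose, against 18.0% called over all genes. *Nfkbil1*, 41.4 kb from the *Ltb* start beyond *Lta*, fell 2.84-fold (log2 fold change -1.50, standard error 0.286, adjusted p = 0.000791, edgeR). *Prrc2a*, 29.5 kb away on the other side, fell 1.42-fold (adjusted p = 0.00309) and *Ddx39b*, an RNA helicase gene 47.3 kb away, fell 1.23-fold (adjusted p = 0.031). *Bag6*, encoding a chaperone of membrane proteins, rose 1.45-fold (adjusted p = 0.00608), a call that was lost without the third wild-type-labelled mouse, with the first repeat alone and with TPM values. Without one mouse at a time, the number that fell ranged from 2 to 3, but it was 1 with the second repeat alone and 0 with unfiltered TPM. Genes that fell, a gene that rose and genes whose intervals include 0, such as *Lta* and *Tnf*, thus lay side by side around *Ltb*.

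**Figure D4:**
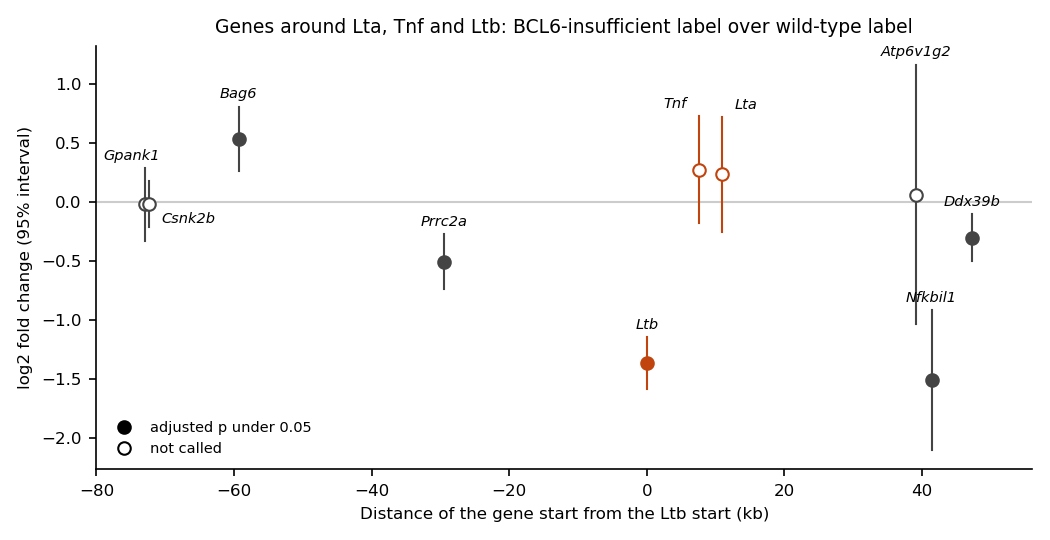
Log2 fold change with its 95% interval (vertical axis) of the tested genes around *Ltb* against the distance of their start from that of *Ltb* in kb (horizontal axis). Filled points have an adjusted p under 0.05 and the lymphotoxin and TNF genes are red. *Ltb* at -1.36 stands beside *Tnf* at 0.27 and *Lta* at 0.23.

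*Tnfsf14* encodes LIGHT, a ligand of HVEM and of the lymphotoxin beta receptor, and lies at chr17:57189492-57194177 (minus strand), on the same chromosome as *Ltb* but far from it. It had 11.57, 10.49 and 10.18 CPM in the mice labelled BCL6-insufficient and 21.7, 18.58 and 19.52 CPM in those labelled wild-type. The mice of the labels did not overlap. The fall was 1.85-fold, a log2 fold change of -0.89 with a standard error of 0.205 and a 95% interval from -1.31 to -0.46 (adjusted p = 0.00399, edgeR). The libraries did overlap, at 7.143 to 15.66 CPM against 13.63 to 28.06 CPM. With the second technical repeat alone the call was lost, with a log2 fold change of -0.61 (adjusted p = 0.207, edgeR).

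*Tnfsf8* encodes CD30L, whose receptor CD30 is found on activated lymphocytes, and lies at chr4:63831308-63861347 (minus strand). It had 75.49, 61.56 and 59.73 CPM in the mice labelled BCL6-insufficient and 48.08, 53.78 and 40.32 CPM in those labelled wild-type. The lowest mouse of the first group was above the highest of the second, whereas the libraries overlapped at 54.64 to 75.81 CPM against 33.56 to 55.54 CPM. The rise was 1.39-fold, a log2 fold change of 0.47 with a standard error of 0.139 and a 95% interval from 0.19 to 0.76 (adjusted p = 0.0202, edgeR). The call was lost without the first mouse labelled BCL6-insufficient (log2 fold change 0.36, adjusted p = 0.132) and without the third labelled wild-type (0.36, adjusted p = 0.125). It was also lost without the first labelled wild-type, where the log2 fold change stayed at 0.47 (adjusted p = 0.0549). Further losses of the call came with the second repeat alone and with TPM values, where the log2 fold change of log2(TPM + 1) was 0.32 (adjusted p = 0.192, limma).

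*Tnfsf11* encodes RANKL, known for driving osteoclast formation and lymph node development, and lies at chr14:78277445-78308043 (minus strand). It had 24.46, 23.78 and 19.43 CPM against 32.69, 26.4 and 22.6 CPM, in the order of labels used above. The groups overlapped, and the log2 fold change of -0.27 had a 95% interval from -0.65 to 0.11 (adjusted p = 0.351, edgeR). *Tnfsf10*, encoding the death ligand TRAIL, was low at 2.496 ± 0.8437 CPM (SD, n = 3) against 3.159 ± 0.7754 CPM (SD, n = 3). Its 95% interval, from -1.31 to 0.64 on the log2 scale, includes 0 and does not exclude a fall of over 2-fold.

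*Tnfsf13b*, which encodes the B cell survival factor BAFF, made mainly by myeloid and stromal cells, had 4, 13 and 16 counts in the mice labelled BCL6-insufficient and 6, 27 and 0 counts in those labelled wild-type. Its log2 fold change of 0.05 had a 95% interval from -1.87 to 1.97 (adjusted p = 0.981, edgeR). A transcript on the opposite strand, *Gm44789*, overlaps it, and whether the counting used strand is not given in the sources used here. *Fasl*, encoding the death ligand that engages FAS, had 6, 1 and 0 counts against 1, 0 and 6 counts. A count of 0 allows up to 0.297 CPM in the third mouse labelled BCL6-insufficient and 0.265 CPM in the second labelled wild-type, taking 3 counts as the limit and counting error only. No difference between the labels was detectable for these transcripts at this depth.

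The error of each value depended on the gene. Between the repeats of a mouse, the SD of log2(CPM + 1) was 0.127 for *Cd40lg*, 0.19 for *Tnfsf8* and 0.192 for *Tnfsf11*. It was 0.255 for *Ltb*, 0.392 for *Tnf*, 0.446 for *Lta* and 0.531 for *Tnfsf14*. For each of these 7 genes it was larger than the SD that counting alone gives, which ranged from 0.0588 for *Cd40lg* to 0.172 for *Tnfsf14*. Spread of this size between aliquots of about 200 cells was thus larger than the counting error. Between mice, whose values sum 2 repeats, the SD was 0.0773 for *Ltb*, 0.0995 for *Tnfsf14*, 0.133 for *Cd40lg*, 0.193 for *Tnfsf8*, 0.22 for *Tnfsf11*, 0.367 for *Tnf* and 0.408 for *Lta*. For *Ltb* and *Tnfsf14* the SD between mice was far below that between repeats, so it may understate the error of these genes.

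Transcripts of the other parts of the pathway were looked at in lists chosen from general knowledge. Values are given for the BCL6-insufficient label first and then for the wild-type label. Among other ligands of the family, 3 of 8 were in the table and 1 was tested, with 0 called by edgeR or by DESeq2 and 0 at an unadjusted p under 0.05. *Tnfsf9*, which encodes 4-1BBL, had 6.525 ± 2.039 CPM (SD, n = 3) against 5.478 ± 2.68 CPM (SD, n = 3), and *Tnfsf15* had 13 counts in all against 1.

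Among 13 genes for receptors of the ligands, 7 were tested and edgeR called 0 at an adjusted p under 0.05, against 18.0% called over all genes, with 1 higher and 1 lower at an unadjusted p under 0.05. So few tested genes say little about the list. DESeq2 also called 0 of them, and limma voom, taking mice as random effects, called 1 lower. *Tnfrsf1b*, encoding a TNF receptor of lymphocytes, had 58.32 ± 5.426 CPM (SD, n = 3) against 62.71 ± 13.64 CPM (SD, n = 3). *Tnfrsf13b*, encoding the BAFF and APRIL receptor TACI, had 28.24 ± 2.328 CPM (SD, n = 3) against 30.8 ± 8.492 CPM (SD, n = 3). *Cd40* and *Ltbr*, the receptors of CD40L and of the lymphotoxin heterotrimer, had 5 and 1 counts in all against 14 and 3, so that the Tfh libraries held these ligands with almost no transcript of their main receptors.

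Among 8 genes for proteases and partners that cut or mature such ligands, 6 were tested and edgeR called 0, against 18.0% over all genes, with 0 higher and 1 lower at an unadjusted p under 0.05, and DESeq2 also called 0. Without the first mouse labelled wild-type, edgeR called 1 lower. *Adam10*, encoding a protease that sheds surface proteins including CD40L, had 60.52 ± 11.11 CPM (SD, n = 3) against 65.68 ± 3.318 CPM (SD, n = 3). *Sppl2a*, encoding an intramembrane protease that acts on TNF and FasL, had 47.0 ± 3.227 CPM (SD, n = 3) against 53.48 ± 3.418 CPM (SD, n = 3), with a log2 fold change of -0.18 (adjusted p = 0.358, edgeR).

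Among 11 genes for RNA-binding proteins known to act on messenger RNAs of TNF ligands, 4 fell and 1 rose, or 45.5% called against 18.0% over all genes. *Hnrnpd*, encoding the AU-rich element binding protein AUF1, rose 2.03-fold (adjusted p = 2.21e-06, edgeR). *Ptbp1*, whose product binds and stabilizes *Cd40lg* messenger RNA, fell 1.59-fold (adjusted p = 3.72e-05), from 365.2 ± 15.52 CPM (SD, n = 3) with the wild-type label to 229.9 ± 14.67 CPM (SD, n = 3). *Elavl1*, encoding the stabilizing protein HuR, fell 1.5-fold (adjusted p = 0.000426), *Rc3h1*, encoding Roquin-1, fell 1.44-fold (adjusted p = 0.017) and *Zfp36l2*, of the tristetraprolin family, fell 1.46-fold (adjusted p = 0.0413). The genes called thus included ones for stabilizing and for destabilizing proteins. Without the third mouse labelled BCL6-insufficient or the second labelled wild-type, 2 in place of 4 fell, and with the second repeat alone 1 fell and 2 rose.

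Among 28 genes for TRAF adaptors, death-domain adaptors and NF-κB, through which receptors of the family signal, 2 rose and 3 fell. That is 17.9%, near the 18.0% over all genes. *Cflar*, encoding the caspase-8 inhibitor FLIP, rose 1.46-fold (adjusted p = 0.00233, edgeR) and *Nfkbiz*, encoding a nuclear IκB protein, rose 1.59-fold (adjusted p = 0.00328). *Nfkbie*, encoding IκBε, fell 1.6-fold (adjusted p = 0.0131), *Tradd*, encoding an adaptor of the TNF receptor, fell 1.32-fold (adjusted p = 0.028) and *Rela*, encoding the p65 subunit of NF-κB, fell 1.27-fold (adjusted p = 0.0314). The number that fell was 1 without any 1 mouse other than the second labelled BCL6-insufficient, without which it was 2, and the number that rose was 2 or 3. With upper-quartile scaling 5 rose and 2 fell, whereas with log2(TPM + 1) values 0 rose and 3 fell.

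**Figure D5:**
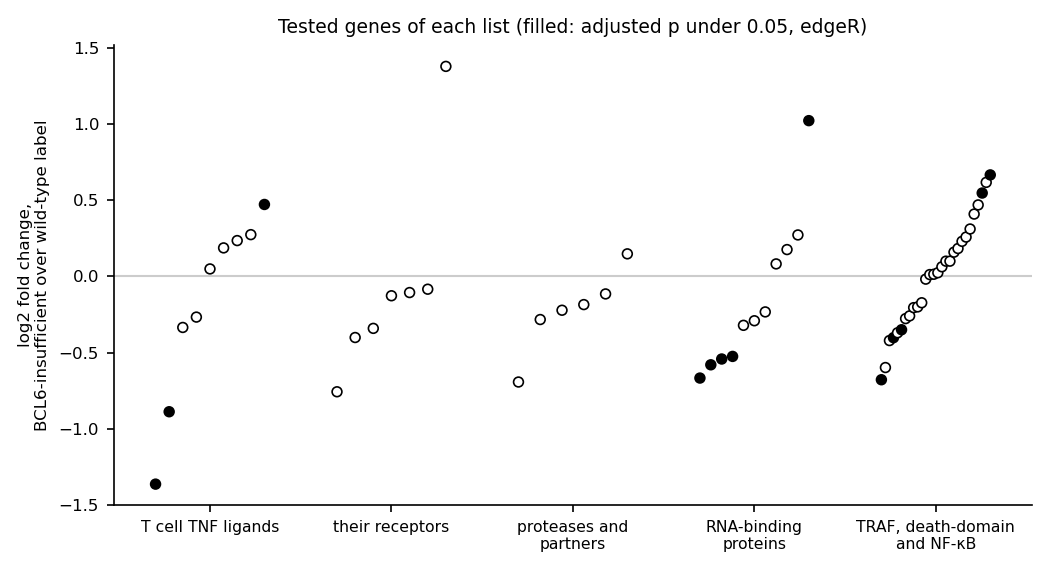
Log2 fold change, BCL6-insufficient over wild-type label (vertical axis), of each tested gene in 5 lists (horizontal axis), ordered by value within a list. Filled points have an adjusted p under 0.05, namely 3 of 9 ligands, 0 of 7 receptors, 0 of 6 proteases and partners, 5 of 11 RNA-binding proteins and 5 of 28 TRAF, death-domain and NF-κB genes.

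Transcripts listed as markers of other cell types were counted as well, and whether they came from such cells was not tested. The 12 B cell markers summed to between 517.7 and 735.1 CPM in the mice labelled BCL6-insufficient and between 614.7 and 872.5 CPM in those labelled wild-type, most of it *Ighm*. Without *Ighm* they summed to 19.07 to 134.7 CPM against 17.87 to 107.7 CPM. The library with the most, the second repeat of the second mouse labelled BCL6-insufficient at 244.0 CPM, was also the one with the lowest *Ltb*. Without it, the log2 fold change of *Ltb* was -1.28 (adjusted p = 3.43e-07, edgeR), that of *Tnfsf14* was -0.99 (adjusted p = 0.00521) and that of *Tnfsf8* was 0.44 (adjusted p = 0.0497). The library with the next highest sum was the second repeat of the third mouse labelled wild-type, at 139.7 CPM, and without it these values were -1.40 (adjusted p = 1.58e-07), -1.05 (adjusted p = 0.00306) and 0.52 (adjusted p = 0.0309). Of 13 myeloid and dendritic cell markers, 11 were in the table, and they summed to 106.7 to 131.3 CPM against 80.87 to 87.46 CPM, most of it *Cst3*, so that the mice of the labels did not overlap. *Lyz2* rose with the BCL6-insufficient label (log2 fold change 2.64, adjusted p = 0.00531, edgeR), at 7.77 ± 7.522 CPM (SD, n = 3) against 1.238 ± 1.02 CPM (SD, n = 3). *Csf1r* had 9.091 ± 0.6986 CPM (SD, n = 3) against 5.331 ± 0.4786 CPM (SD, n = 3). Its mice did not overlap, but it was not called (adjusted p = 0.0676, edgeR). *S100a8* had 160 counts in all against 0, *Tyrobp* 61 against 11 and *Itgam* 48 against 11. The remaining markers also had higher means with this label, except *Cd14*, which had no count in any library. *Lyz2* did not pass a filter of at least 10 counts in every library, and its call was lost with DESeq2, with the second repeat alone, with TPM values and without the first mouse labelled BCL6-insufficient, the mouse with the most *Lyz2*. With that filter 1 of 2 tested myeloid markers was called higher, where 2319 of 9261 genes were called. With at least 1 count in any mouse 3 of 10 were, where 2348 of 22420 genes were called. Of 10 markers of NK and CD8 cells, 9 were in the table and summed to 28.99 to 36.03 CPM against 30.33 to 41.95 CPM, most of it *Cd8b1* (25.7 ± 5.572 against 34.12 ± 6.921 CPM, SD, n = 3), with *Eomes* at 0. *Cd8b1* was not called (adjusted p = 0.144, edgeR), and *Cd8a* had 0 counts in all against 2. *Nkg7*, a gene of cytotoxic granules, had 5.423 ± 3.636 CPM (SD, n = 3) against 1.829 ± 1.227 CPM (SD, n = 3), a rise of 2.91-fold (adjusted p = 0.0494, edgeR). The *Nkg7* call was lost with DESeq2, with its size factors in edgeR, with limma voom, with GC and length trends removed, with either repeat alone, with TPM values, without each of the 3 single libraries left out in turn, without mouse 2 or mouse 3 labelled BCL6-insufficient and without mouse 1 or mouse 2 labelled wild-type. Of 10 lymph node stroma markers, 5 were in the table and summed to 56.54 to 75.11 CPM against 73.24 to 87.45 CPM, most of it *Pecam1*. *Cdh5* had no count in any library, and *Col1a1* had 5 counts in all against 2. The 8 T cell genes summed to 9546 to 10570 CPM against 7303 to 8834 CPM, most of it *Trac*, which rose 1.47-fold (adjusted p = 0.000151, edgeR). *Lck* (adjusted p = 0.0121), *Cd5* (adjusted p = 0.0312) and *Cd4* (adjusted p = 0.0446) fell by 1.26-fold to 1.27-fold. The other 4 were not called, so that 1 of the 8 rose and 3 fell, against 18.0% called over all genes. The number that fell was 0 without the second mouse labelled BCL6-insufficient or the first labelled wild-type, and 1 without the third labelled wild-type. It was also 0 with the first repeat alone, with GC and length trends removed and with unfiltered TPM, and 1 with upper-quartile scaling. The part of these transcripts in the *Ltb*, *Tnfsf14* and *Tnfsf8* results was not tested.

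The patterns most like those of *Ltb* and *Cd40lg* were sought by the Pearson correlation of log2(CPM + 1) over the 12 libraries, which share mice in pairs and hold both labels. For *Ltb* these were *Anxa11* (r = 0.977), *Ap2m1* (r = 0.975) and *Gm45760* (r = 0.973). For *Cd40lg* they included *Pum2* (r = 0.922) and *Itgb3* (r = 0.918).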

How the data were processed

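Messenger RNA of about 200 sorted cells per library was measured by SMART-Seq2. Per the methods and the submitters' processing notes, the authors aligned reads to GRCm38 with HISAT2 2.2.1. They deposited HTSeq counts, not normalized, for 24561 genes and also deposited TPM for 24530 genes, which were used here only as an alternative. The annotation release and strand setting are not given in the sources used here. Since reads carried no molecular identifiers, counting error is a lower limit of the technical error.

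Repeats were summed per mouse and compared in R 4.3.3 by the quasi-likelihood test of edgeR 4.0.16 (TMM scaling, filterByExpr, Benjamini-Hochberg adjustment over 12719 genes). The ratios had 0.5 added to each count. Coordinates and exon lengths came from a GRCm38 annotation, which held 23822 of the symbols, 212 more under an older or other symbol, and lacked 527. GC and length trends were removed with mgcv 1.9.3 for 98.9% of the tested genes. The other tools were DESeq2 1.42.0 and limma 3.58.1, and scripts were tested on simulated data. Alternatives were other scalings, filters and tools, each repeat alone, TPM in place of counts, a replicate block, and leaving out mice or libraries. No column was left unmapped.

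The 10 ligands, the lists and the ratios were chosen with earlier results of these data known. Named were the ligands, *Bcl6*, at most 5 called genes of smallest p per list (with none called, the 2 of highest CPM), the 3 genes most like *Ltb* and *Cd40lg* (of which 1 is not reported here), and markers bearing on a ligand. *Cd40* and *Ltbr* were named outside this rule, after their values were seen. The labels number the mice but name no separate experiments, so p-values measure the spread between these mice.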

Additional observations from a re-analysis of the deposited data

Results flagged for a closer look

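In 20 groups of 6 libraries, 1 per ligand and label, the highest or lowest library stood apart from the others in 6 groups by Dixon's criterion. Chance gives about 1 for independent values with a normal spread. The libraries are repeats in pairs and some groups hold many counts of 0, so these numbers do not measure an excess over chance. The second repeat of the second mouse labelled BCL6-insufficient accounted for 3 of them: *Ltb* at 42.06 CPM against a median of 63.54 CPM in the other libraries of the label, *Tnf* at 42.28 CPM against 22.62 CPM and *Tnfsf10* at 5.505 CPM against 2.208 CPM. The other 3 were in transcripts near the limit of detection. *Fasl* had 0.736 CPM in the second repeat of the first mouse labelled BCL6-insufficient and 0.8877 CPM in the first repeat of the third mouse labelled wild-type, against a median of 0 in the other libraries of each label. *Tnfsf13b* had 3.692 CPM in the second repeat of the second mouse labelled wild-type, where the others had a median of 0.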

How the results depend on the processing

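Over 23 alternatives, of which 3 that leave out a single library were chosen after seeing the data, *Ltb* was called in 23, with a log2 fold change from -1.51 to -1.19, *Tnfsf14* in 21, from -1.12 to -0.61, and *Tnfsf8* in 16, from 0.32 to 0.63. *Cd40lg* was called in 0 of 23, from 0.05 to 0.35. *Bcl6* was called in 22, the exception being TPM with a pseudocount of 1 over all genes (adjusted p = 0.0514, limma). The number of ligands called higher was 0, in place of 1, with the second technical repeat alone and on each of the TPM scales (pseudocount 1, pseudocount 0.1, and pseudocount 1 without a filter), and leaving out 1 mouse gave 0 to 1. The number called lower was 1, in place of 2, with the second repeat alone and with unfiltered TPM, where *Ltb* was the gene called, and was 2 without each mouse in turn. The cause was not tested. The differences in log2 ratio ranged from -1.87 to -1.34 (*Ltb* to *Lta*) and from -1.67 to -1.41 (*Ltb* to *Cd40lg*) over their alternatives. Over all genes, 2288 calls became 1059 and 1446 with the first and second repeat alone, 1305 and 1260 with TPM at the larger and smaller pseudocount, 70 with unfiltered TPM and 1424 without the third mouse labelled wild-type. With TPM at the smaller pseudocount, the median log2 fold change over genes was -0.11 in place of 0.01.

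Mouse numbers did not pair the samples, with correlations between same-numbered mice of 0.085, -0.028 and 0.025. With the replicate number as a block, 2579 genes were called, 1 ligand higher and 2 lower, and the differences in log2 ratio were -1.60 and -1.55. *Tnfsf13b* and *Fasl* had at most 27 counts in a mouse, and at this depth no difference was detectable for them. *Tnfsf10* and *Tnfsf13b* were below the filter in 1 and 3 alternatives.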
